A study of Mus musculus with 144 samples.

Results

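The libraries described here are the vehicle libraries of cultured primary mouse hepatocytes at the end of a time course, 8 harvested at 72 h and 8 at 120 h. They are 16 of the 72 vehicle libraries, beside which the series holds 72 libraries treated with TCDD. They were chosen by their labels for vehicle and time alone, with 4 libraries for each genotype label at each time. The wild-type (WT) cells came from C57BL/6NCrl mice. The DRE-null cells came from the Pkm-delta-DRE line, in which a dioxin response element in an intron of *Pkm* was deleted by genome editing, so all mice under that label derive from 1 edited line. All donors were males of 28 days, and all 16 cultures received dimethyl sulfoxide (DMSO) with 0 nM of dioxin (TCDD, given at 10 nM in the treated arm of the study). The cultures shared collagen-coated plates, Williams E medium, attachment in serum and then a serum-free medium with insulin, transferrin, selenium and dexamethasone. The labels and the protocol disagree on plate format and seeding density. The labels name no replicate number, hepatocyte isolation or harvest batch, so p-values measure only the spread between these samples, and time in culture cannot be told apart from any batch tied to a harvest. The comparison asks how vehicle hepatocytes changed between the 2 times, which is the background against which late responses to TCDD are read.

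Hepatocytes are epithelial cells that in the liver rarely divide, secrete most plasma proteins and carry the enzymes of the urea cycle, gluconeogenesis and drug metabolism. Plated on collagen they attach, spread and gradually lose the expression of these specialised genes while genes of the cytoskeleton and of simple epithelia become active, a process called dedifferentiation. Insulin and attachment can also draw them into the cell cycle. In a bulk library, fewer cells of a type and less RNA per cell cannot be told apart.

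Each library held between 15550949 and 22900470 counts on genes. Levels are given as CPM, counts scaled to a common library size after each library's total was multiplied by its TMM scaling factor from edgeR. CPM values are therefore not shares of a library's raw counts. The mitochondrial share of raw counts averaged 2.49% at 72 h and 2.15% at 120 h. The list of mitochondrially encoded genes summed to a mean of 21367 and then 15390 CPM. How much of a printed fall or rise in CPM came from this scaling was not tested. No library measure differed between the times after adjustment. Genes detected averaged 19591 ± 1667 (SD, n = 8) at 72 h and 21426 ± 1636 (SD, n = 8) at 120 h, with an exact two-sided permutation p of 0.0444 and 0.229 after adjustment over 7 measures. Uniquely mapped pairs on no gene made up 7.22% and 8.57% of pairs, with an adjusted exact permutation p of 0.229 as well. The other measures had adjusted exact permutation p-values between 0.229 and 0.884.

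Principal component analysis placed 2 of the 72 h libraries away from the rest. WT 72 h replicate 3 lay at -56.8 on PC1 and 46.5 on PC2, while the other WT 72 h libraries lay between -24.99 and -22.19 on PC1. DRE-null 72 h replicate 1 lay at 13.48 on PC1, on the side of the 120 h libraries, and its median correlation across genes was 0.906 with the libraries of its own time and 0.959 with those of 120 h. WT 120 h replicate 2 lay at -7.80 on PC1, with median correlations of 0.939 and 0.940. Whether labels were exchanged was not tested. The leading results are therefore given with all 16 libraries and again without WT 72 h replicate 3 and DRE-null 72 h replicate 1, a setting chosen after seeing the data. Since DRE-null 72 h replicate 1 lay with the 120 h libraries, leaving it out by itself favours a wider difference between the times. The setting is thus no independent check. WT 120 h replicate 2, which lay between the groups on PC1, was kept.

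**Figure D1:**
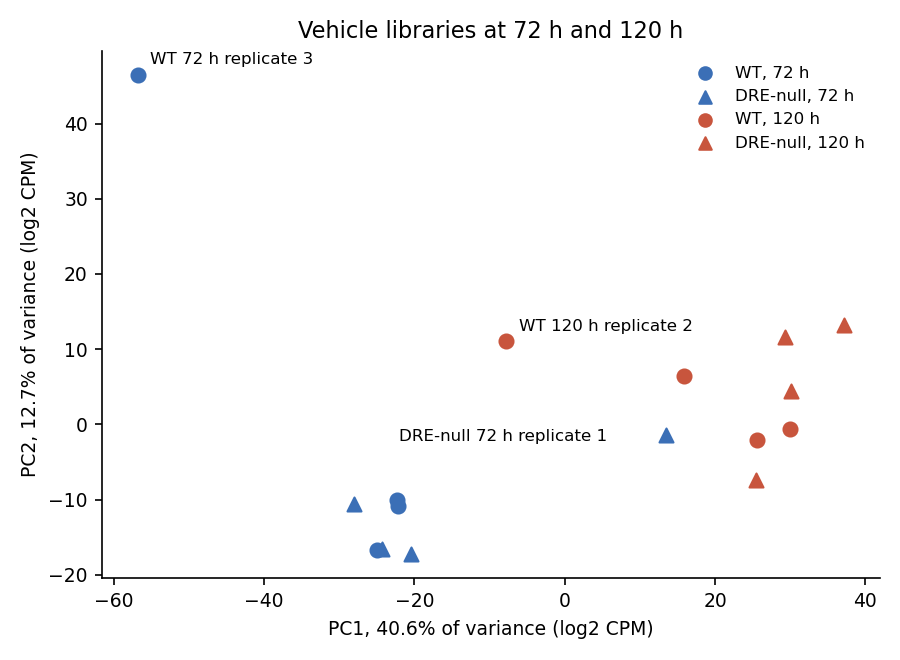
Principal component scores of the 16 vehicle libraries (log2 CPM of the 1000 most variable genes), with PC1 (40.6% of the variance) on the x axis and PC2 (12.7%) on the y axis. Circles are WT and triangles DRE-null, blue 72 h and red 120 h. Apart from the 3 libraries named in the plot, the 72 h libraries sit between -28.09 and -20.51 on PC1 and the 120 h libraries between 15.89 and 37.21.

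*Pkm*, the pyruvate kinase gene whose intronic element was edited, was measured first. The deletion leaves the coding exons in place, so its level does not check the edit. *Pkm* was 845 ± 870 CPM at 72 h and 226 ± 114.8 CPM at 120 h under the WT label, and 489 ± 140 and 277 ± 95.9 CPM under the DRE-null label (SD, n = 4 each). At both times the values of the labels overlapped, so *Pkm* did not tell the labels apart, and the groups are called by their labels only. Over both labels, the 8 libraries ran from 354 to 2147 CPM (median 439) at 72 h and from 141.04 to 395 CPM (median 196) at 120 h, and the groups overlapped. The highest value belonged to WT 72 h replicate 3. *Pkm* fell by 1.34 on the log2 scale (SE 0.38, edgeR adjusted p = 0.0342) and by 0.85 (adjusted p = 0.0202) without both libraries that stood apart. Its call was lost when any of 6 single libraries was left out, with adjusted p-values up to 0.075.

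*Cyp1a1*, a monooxygenase gene switched on by the aryl hydrocarbon receptor (AHR), marks exposure to dioxin. Vehicle libraries ran from 2.90 to 56.8 CPM (median 13.7) at 72 h and from 7.75 to 268 CPM (median 54.9) at 120 h. The TCDD libraries of 120 h ran from 3330 to 4509 CPM, above all of these, whereas 1 TCDD library of 72 h had 28.8 CPM against a median of 5079. Of the vehicle libraries, 1 of 96 h had 1706 CPM. The difference between the vehicle times was 1.93 ± 0.74 (log2, SE) and was not called (edgeR adjusted p = 0.1003). Without both libraries that stood apart it was 2.45 and called (adjusted p = 0.0416). *Cyp1a2*, the liver's other main CYP1 enzyme, rose from 20.3 ± 19.5 to 71.9 ± 36.4 CPM (SD, n = 8 each), a log2 change of 1.96 (adjusted p = 0.0226).

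The cell type on the labels was checked against its markers. All 20 hepatocyte markers passed the filter on low counts, and their summed level ran from 20488 to 48849 CPM (median 31624) at 72 h and from 11313 to 39628 CPM (median 20101) at 120 h. The sums of 16 endothelial, 18 macrophage and 17 stellate cell markers stayed between 54.9 and 525 CPM in all 16 libraries. *Timd4*, *Folr2* and *Itgam* of the macrophage list and *Colec11*, *Ngfr* and *Gfap* of the stellate list were below 1 CPM throughout. All 11 lymphocyte and neutrophil markers were below 1 CPM in every library, and 6 of them, *Cd3e*, *Cd3d*, *Ms4a1*, *Nkg7*, *S100a9* and *Ly6g*, had no count in any. Cholangiocyte markers summed to 717 to 1791 CPM at 72 h and 991 to 1748 CPM at 120 h.

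Between 72 h and 120 h the list with the largest share of members called lower was that of the cell cycle, 36 of 50. Among plasma proteins 19 of 52 fell and among enzymes of glycolysis 8 of 22, shares that moved with single libraries. Single genes that rose included *Wnt4* and *Tat*. Of 15083 genes tested, 1266 were called (edgeR quasi-likelihood test, adjusted p under 0.05 and at least 1.5-fold), 559 higher at 120 h (3.71% of genes tested) and 707 lower (4.69%). The median log2 change over all genes tested was 0.06, and 6885 of the values were negative. Of the called genes 44.2% were higher, a share of 54.95% without both libraries that stood apart and of 17.5% with all 72 vehicle libraries of the course in 1 fit. Without both libraries that stood apart, 2131 of 15381 genes were called, 1171 higher (7.61%) and 960 lower (6.24%). The count rested on single libraries as well: it was 2452 without DRE-null 72 h replicate 1, 796 without WT 120 h replicate 1, 761 without WT 120 h replicate 4, 797 without DRE-null 72 h replicate 4 and 834 without DRE-null 120 h replicate 3. In 39 genes (0.259%) all 8 libraries of 120 h lay above all 8 of 72 h, and in 75 genes (0.497%) all lay below.

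**Figure D2:**
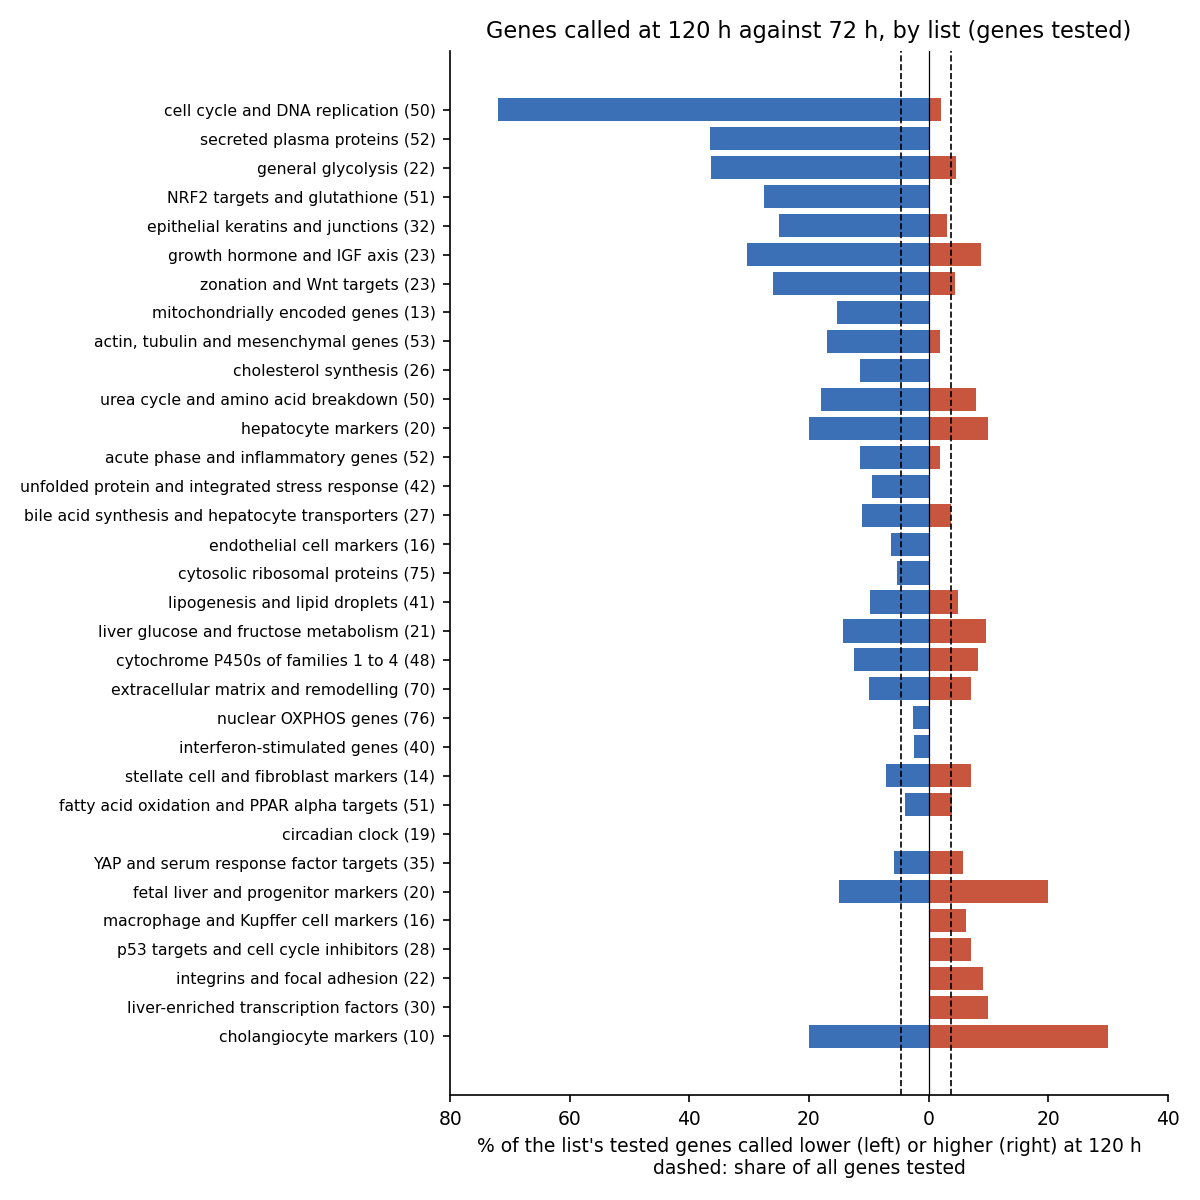
Share of each gene list's tested members (x axis, percent) that was called lower (blue, left) or higher (red, right) at 120 h than at 72 h, with the number of members tested beside each name. Dashed lines give the shares over all genes tested, 4.69% lower and 3.71% higher. The cell cycle list stands out with 36 of 50 members called lower.

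Genes of DNA replication and mitosis are transcribed together as cells enter S phase and mitosis. E2F factors act at the promoters of the first group. For the second group, repeated CCAAT boxes and an element called CHR, TTTGAA, are textbook features. The promoters of the 3 members with the smallest p-values and a RefSeq window, *Rrm2*, *Cenpa* and *Ccnb2*, and of *Mcm6*, chosen after its values were seen because its window held E2F-type motifs, are printed because the list moved together. Each window spans 250 bases before to 50 after the start of the gene (RefSeq, GRCm38.p6), and capitals mark the CCAAT box, the CHR element TTTGAA, and as E2F-type motifs the letters TTTCCCGC as well as TTTGGCGC, on either strand. The windows lie at chr12:24708004-24708303 (plus strand), chr5:30666636-30666935 (plus), chr9:70421505-70421804 (minus) and chr1:128359656-128359955 (minus), in that order.
Rrm2: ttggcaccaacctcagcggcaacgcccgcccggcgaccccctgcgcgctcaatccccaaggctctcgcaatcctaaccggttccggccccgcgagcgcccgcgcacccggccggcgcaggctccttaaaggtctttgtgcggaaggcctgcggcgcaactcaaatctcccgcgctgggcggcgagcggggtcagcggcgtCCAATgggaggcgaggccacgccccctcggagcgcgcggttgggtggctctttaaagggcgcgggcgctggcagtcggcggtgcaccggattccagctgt
Cenpa: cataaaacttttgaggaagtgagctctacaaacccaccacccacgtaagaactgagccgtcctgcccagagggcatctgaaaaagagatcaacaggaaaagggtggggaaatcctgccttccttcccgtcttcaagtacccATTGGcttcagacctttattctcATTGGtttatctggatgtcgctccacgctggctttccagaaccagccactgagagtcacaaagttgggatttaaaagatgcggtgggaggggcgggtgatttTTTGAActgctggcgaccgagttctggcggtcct
Ccnb2: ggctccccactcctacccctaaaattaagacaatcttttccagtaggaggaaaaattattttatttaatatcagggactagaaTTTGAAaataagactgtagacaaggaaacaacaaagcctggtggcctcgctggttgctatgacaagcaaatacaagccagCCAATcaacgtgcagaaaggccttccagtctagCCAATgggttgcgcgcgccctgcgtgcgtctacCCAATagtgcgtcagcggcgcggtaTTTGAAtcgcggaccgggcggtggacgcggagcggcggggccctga
Mcm6: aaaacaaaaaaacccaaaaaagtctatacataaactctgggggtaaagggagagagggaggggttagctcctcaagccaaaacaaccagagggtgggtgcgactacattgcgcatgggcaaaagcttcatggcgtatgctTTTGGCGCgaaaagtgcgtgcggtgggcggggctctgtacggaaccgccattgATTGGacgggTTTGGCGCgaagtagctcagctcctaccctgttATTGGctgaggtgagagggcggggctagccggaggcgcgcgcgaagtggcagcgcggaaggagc
The printed windows held 1, 2, 3 and 2 CCAAT boxes, and no 2 marked motifs overlapped. Among the 29 cell cycle genes called lower that had a window, 22 (75.9%) held a CCAAT box, against 37.9% of 27025 windows in all and 38.4% of those of genes tested. TTTGAA was in 12 (41.4%), against 18.1% of all windows and 12.1% of those tested. An E2F-type motif was in 7 (24.1%), against 1.63% and 2.97%. These are descriptions of letters in a window, and binding of any factor was not measured. Cell cycle genes not called lower were not counted apart. The shares therefore describe cell cycle promoters and do not bear on the fall between the times.

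Of the 50 cell cycle and DNA replication genes, all tested, 36 fell and 1 rose, with a median log2 change of -1.53. The share that fell was 72.0%, against 4.69% of all genes tested. In 13 of them all 120 h libraries lay below all 72 h libraries, which held for 0.497% of all genes tested. Left out together, both libraries that stood apart made it 40 lower and 1 higher, with a median of -1.63. *Rrm2*, the small subunit of ribonucleotide reductase that makes deoxynucleotides, ran from 23.1 to 67.03 CPM (median 50.6) at 72 h and from 4.30 to 16.1 CPM (median 8.59) at 120 h. All 120 h libraries lay below all 72 h libraries, and DRE-null 72 h replicate 1 was the lowest of the 72 h group. *Rrm2* fell 4.66-fold, or by 2.22 on the log2 scale (SE 0.22, edgeR adjusted p = 4.32e-05). *Mcm6*, part of the helicase that opens replication origins, fell from 61.02 ± 14.2 to 27.5 ± 6.80 CPM (SD, n = 8 each), and *Mcm5* from 34.4 ± 13.1 to 10.3 ± 3.76 CPM.

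Mitotic genes of the list were lower as well. *Cenpa*, the histone variant that marks centromeres, ran from 8.06 to 24.9 CPM (median 19.7) at 72 h and from 2.91 to 4.91 CPM (median 3.21) at 120 h, a fall of 2.24 (log2, SE 0.23, adjusted p = 4.44e-05). *Ccnb2*, a cyclin of mitotic entry, ran from 7.62 to 24.8 CPM (median 19.99) and then from 1.53 to 4.65 CPM (median 3.64), a fall of 2.34 (SE 0.29, adjusted p = 0.000204). *Aurka*, a spindle pole kinase, ran from 11.6 to 41.03 CPM (median 26.2) and then from 5.09 to 8.18 CPM (median 6.35), a fall of 1.90 (SE 0.22, adjusted p = 0.000113). For these 3 genes, and for the spindle gene *Spag5* (median 12.4 and then 3.44 CPM), the groups did not overlap. *Ube2c* and *Birc5*, which act in mitotic exit and chromosome segregation, fell by 2.57 and 2.53, and *Cdk1*, the mitotic kinase, by 2.09. The proliferation marker *Mki67* had a wide spread, 19.1 ± 13.8 CPM at 72 h and 5.16 ± 4.20 CPM at 120 h (SD, n = 8 each), and fell by 1.76 (adjusted p = 0.0376). At the other end of the list, *Pcna* fell by 0.64 and *E2f1* by 0.83. The member that rose was *Ccnd2*, a cyclin of early G1, from 18.3 ± 7.03 to 36.9 ± 10.9 CPM (log2 change 1.04, adjusted p = 0.00739), while *Ccnd1*, its close relative, changed by -0.80 and was not called (adjusted p = 0.0993).

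Genes that halt the cycle were described beside them. Of 28 tested p53 targets and cell cycle inhibitors, 2 rose (7.14%, against 3.71% of all genes tested) and none fell, with a median of 0.16. *Bbc3*, which encodes the death-promoting protein PUMA, ran from 15.9 to 38.6 CPM (median 25.9) and then from 31.8 to 63.4 CPM (median 40.6), a rise of 0.74 (SE 0.15, adjusted p = 0.00559). *Eda2r*, a p53-induced receptor, rose by 0.96 (adjusted p = 0.0380), a call lost without any of 10 single libraries. *Cdkn1a*, which encodes the inhibitor p21, was 279 ± 71.7 and 354 ± 104.9 CPM (SD, n = 8 each) and was not called (0.36, adjusted p = 0.175).

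**Figure D3:**
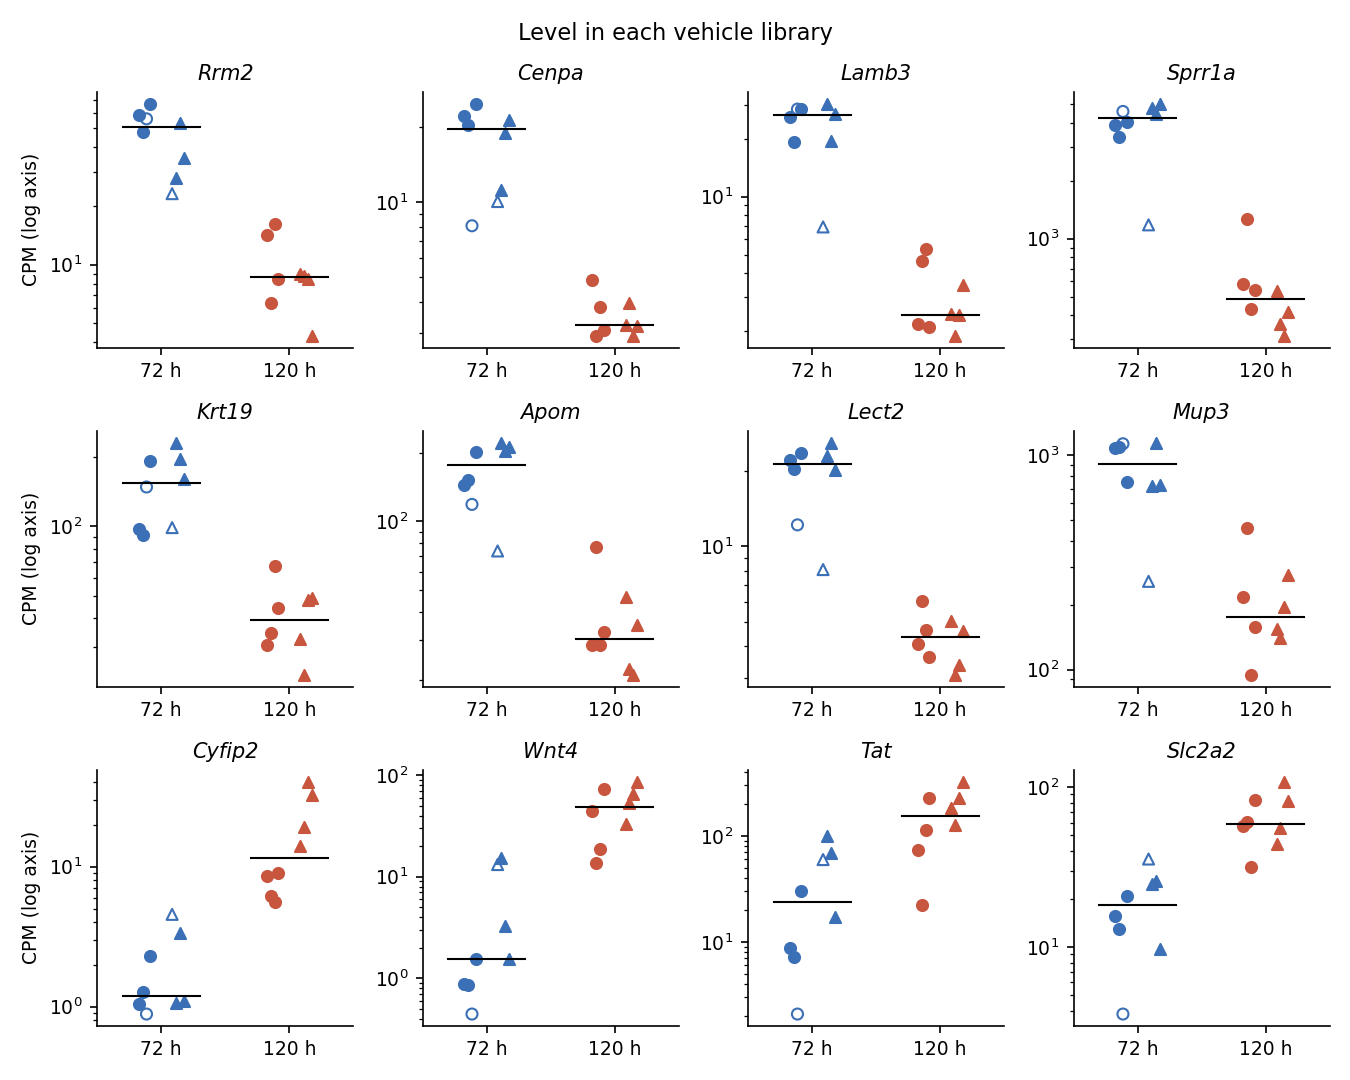
Level of 12 genes in each vehicle library (y axis, CPM on a log axis) at 72 h (blue) and 120 h (red). Circles are WT, triangles DRE-null, open symbols the 2 libraries that stood apart, and bars the medians of 8 libraries. *Rrm2*, *Cenpa*, *Lamb3*, *Krt19*, *Lect2* and *Cyfip2* show groups that do not overlap.

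Several single genes known from epithelia fell by large amounts. *Lamb3*, a chain of the epithelial laminin 332, ran from 6.96 to 30.4 CPM (median 26.4) at 72 h and from 1.89 to 5.33 CPM (median 2.44) at 120 h without overlap. It fell 7.49-fold, or by 2.91 on the log2 scale (SE 0.29, adjusted p = 4.32e-05). *Sprr1a*, a cornified envelope protein also expressed after injury, ran from 1181 to 5035 CPM (median 4249) and then from 312 to 1260 CPM (median 484), a fall of 2.84 (SE 0.30). The overlap came from DRE-null 72 h replicate 1, the lowest at 72 h, and WT 120 h replicate 2, the highest at 120 h. *Crct1*, of cornified epithelium, had a median of 14.9 and then 2.01 CPM and fell by 3.29. The largest fall among named genes was in *Tnnt2*, a troponin of heart muscle, from a median of 7.86 (0.652 to 11.1) to 0.261 CPM (0.0422 to 0.628), or 4.29 on the log2 scale (SE 0.52, adjusted p = 0.000177).

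Of 32 epithelial keratin and junction genes tested, 8 (25%) fell and 1 rose, *Dsg2*, with a median of -0.37. *Krt18*, a keratin of simple epithelia including hepatocytes, ran from 2377 to 5753 CPM (median 4007) and then from 1097 to 3067 CPM (median 1629), a fall of 1.09 (SE 0.22, adjusted p = 0.00585). *Krt20* fell by 1.33 and *Gjb2*, a gap junction gene of hepatocytes, by 1.52. *Krt19*, the keratin of bile duct cells and progenitors, ran from 92.2 to 230 CPM (median 154) and then from 22.8 to 67.1 CPM (median 39.5) without overlap, a fall of 1.84 (SE 0.24, adjusted p = 0.000279). *Sox9*, a transcription factor of the same cells, moved the other way, from 37.4 to 74.8 CPM (median 71.5) and then from 92.3 to 133.2 CPM (median 110.8), again without overlap, a rise of 0.80 (SE 0.14, adjusted p = 0.00179).

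The 10 cholangiocyte markers tested thus split, with 3 higher, *Sox9* and *Bicc1* among them, 2 lower, *Krt19* and *Cldn4*, and a median of 0.04 that turned to -0.15 without both libraries that stood apart. *Bicc1* rose by 0.98 and *Cldn4* fell by 2.58. *Spp1*, the most abundant of the list, had medians of 776 and 700 CPM and was not called (-0.05, adjusted p = 0.932). Among 20 fetal liver and progenitor markers tested, 4 were higher (*Sox4*, *Sox9*, *Cd24a* and *Fgfr2*) and 3 lower (*Krt19*, *Cldn4* and *Anxa2*), with a median of 0.66. *Fgfr2*, a fibroblast growth factor receptor, had a median of 10.5 and then 23.2 CPM (log2 change 1.11, adjusted p = 0.00116), and *Sox4* 358 ± 162 and then 717 ± 120 CPM (SD, n = 8 each). *Afp*, the fetal albumin, was not called (0.90, adjusted p = 0.295).

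Plasma proteins formed the next group. Of 52 tested genes for secreted plasma proteins, 19 (36.5%) fell and none rose, with a median of -0.91. Without both libraries that stood apart 21 fell and none rose. The number moved with single libraries: it was 30 without WT 120 h replicate 2, and 12 without WT 120 h replicate 1, without WT 120 h replicate 4 or without DRE-null 72 h replicate 4. *Apom*, an apolipoprotein of high-density lipoprotein, ran from 73.9 to 222 CPM (median 177) at 72 h and from 21.01 to 77.3 CPM (median 30.4) at 120 h. The ranges overlapped narrowly, through DRE-null 72 h replicate 1 and WT 120 h replicate 2, and *Apom* fell by 2.16 (SE 0.28, adjusted p = 0.000244). *Apoa2* had a median of 147 and then 21.3 CPM and fell by 2.14 (adjusted p = 0.0169), and *Apoa4* a median of 7.03 and then 0.631 CPM, a fall of 2.90. *Pon1*, a paraoxonase carried by lipoprotein, had a median of 12.8 and then 1.91 CPM (fall of 2.49, adjusted p = 0.00112), and *C8b*, of complement, 16.1 and then 1.501 CPM (fall of 2.80). *Trf*, for transferrin, was the most abundant hepatocyte marker, with medians of 16508 and 5920 CPM, and fell by 1.13 (adjusted p = 0.0241); without WT 120 h replicate 1 or 4, DRE-null 72 h replicate 4 or DRE-null 120 h replicate 3 its adjusted p was up to 0.0536. *Alb*, for albumin, was 8468 ± 3407 and 6447 ± 3057 CPM (SD, n = 8 each) and was not called (-0.34, adjusted p = 0.467). Of the 20 hepatocyte markers, 4 fell and 2 rose, with a median of -0.32 and 6 positive values. Their summed level, given above, had a lower median at 120 h, as had *Trf*, which is also in the plasma protein list and adds the most reads to the sum, and its part in these counts was not tested.

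Of 52 acute phase and inflammatory genes tested, 6 fell (*Saa1*, *Saa2*, *Hp*, *Orm1*, *Orm2* and *Fgl1*) and *Crp* rose, with a median of -0.23 and 19 positive values. The count lower was 13 without WT 120 h replicate 2 and 11 without WT 120 h replicate 3. *Saa1*, a serum amyloid protein, had a median of 71.5 and then 6.95 CPM (fall of 2.49, adjusted p = 0.00482). *Crp*, C-reactive protein, ran from 2.08 to 37.3 CPM (median 12.0) and then from 24.3 to 44.9 CPM (median 34.1), a rise of 1.51 (SE 0.31, adjusted p = 0.00559). *Lect2*, a secreted protein named in the zonation list, ran from 8.09 to 25.9 CPM (median 21.3) and then from 3.08 to 6.08 CPM (median 4.35) without overlap, a fall of 2.13 (SE 0.22, adjusted p = 4.65e-05). It was 1 of 6 of 23 tested zonation genes that fell, beside *Cyp1a2* that rose.

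Growth hormone signals through its receptor and STAT5 to induce *Igf1* and the major urinary proteins. Of 23 tested genes of this axis, 7 fell and 2 rose, with a median of -0.03. *Mup3*, a major urinary protein, ran from 258 to 1147 CPM (median 913) at 72 h and from 94.4 to 460 CPM (median 177) at 120 h, a fall of 1.97 (SE 0.30, adjusted p = 0.000795). *Mup11* and *Mup14*, outside this list, fell by 2.79 and 2.74. *Igf1* fell by 1.01 (adjusted p = 0.0308), whereas its receptor *Igf1r* had a median of 3.81 and then 13.9 CPM, a rise of 1.53 (SE 0.29, adjusted p = 0.00355), and *Irs2*, an insulin receptor substrate, rose by 0.81. *Hsd11b1*, which regenerates active glucocorticoid, had a median of 23.1 and then 3.19 CPM (fall of 2.69, adjusted p = 0.000711). *Ces3a* and *Ces3b*, liver carboxylesterases, had medians of 43.05 and 7.79 CPM and then 2.58 and 0.495 CPM, falls of 3.19 and 3.26. Reads of the closely similar members of the *Mup*, *Ces3*, *Saa* and *Gst* families may have been split between copies or dropped in counting, so values of single members are uncertain.

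Enzymes of general glycolysis were lower at 120 h: 8 of 22 tested genes (36.4%) fell and 1 rose, with a median of -0.88, which was -0.39 with 7 lower and 2 higher without both libraries that stood apart. *Ldha*, the lactate dehydrogenase subunit of glycolytic tissue, ran from 324 to 3440 CPM (median 830) and then from 242 to 477 CPM (median 312), a fall of 1.59 (SE 0.36, adjusted p = 0.0112), or 1.22 (adjusted p = 0.000307) without both. Its counterpart *Ldhb* had a median of 2.90 and then 6.77 CPM, a rise of 1.37 (adjusted p = 0.0214) that was lost without WT 120 h replicate 1 (adjusted p = 0.0541) or WT 120 h replicate 4 (0.0514). *Gapdh* had a median of 3710 and then 1705 CPM (fall of 0.97), and *Tpi1*, *Pgk1*, *Pgam1*, *Eno1*, *Pkm* and the lactate transporter *Slc16a1* fell by 0.65 to 1.34. WT 72 h replicate 3 had the highest summed level of the list, 27312 CPM, against 5353 to 12170 CPM in the other 72 h libraries and 4138 to 7203 CPM at 120 h. Without that library alone, 6 genes were called lower and *Ldha* fell by 1.10. The count lower was 2 without WT 120 h replicate 1 or without WT 120 h replicate 4, and 3 without DRE-null 72 h replicate 4 or without DRE-null 120 h replicate 3.

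Glutathione transferases and targets of the oxidative stress factor NRF2 gave 14 lower (27.5%) and none higher of 51 tested, with a median of -0.61, and 13 lower without both libraries that stood apart. The count ran from 5, without WT 120 h replicate 4 or without DRE-null 72 h replicate 4, to 22, without DRE-null 72 h replicate 1. It was 7 without WT 120 h replicate 1, 8 without WT 72 h replicate 3 or without DRE-null 120 h replicate 3, and 21 without DRE-null 120 h replicate 1. *Gsta1*, a glutathione transferase, ran from 167 to 499 CPM (median 223) and then from 43.4 to 122.2 CPM (median 106.99) without overlap, a fall of 1.35 (SE 0.21, adjusted p = 0.000795). *Gstt3* ran from 4.00 to 9.64 CPM and then from 1.11 to 3.42 CPM, also without overlap, a fall of 1.62. *Gstp2* fell by 1.58. *Hmox1*, heme oxygenase, was 637 ± 769 CPM at 72 h and 192 ± 41.5 CPM at 120 h (SD, n = 8 each), and its fall was 1.56 with and 0.95 without both libraries. *G6pdx*, the first enzyme of the pentose phosphate pathway, fell by 1.67 (adjusted p = 0.0215).

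Genes that rose were led by *Wnt4*, a secreted Wnt ligand. It ran from 0.443 to 15.4 CPM (median 1.53) at 72 h and from 13.5 to 86.5 CPM (median 48.6) at 120 h, so that only the DRE-null 72 h replicate 2, at 15.4 CPM, reached the range of the later group. The rise was 15.96-fold, or 4.00 on the log2 scale (SE 0.60, adjusted p = 0.000638). *Ptgfr*, the prostaglandin F receptor, ran from 0.222 to 11.5 CPM (median 3.32) and then from 7.10 to 66.7 CPM (median 32.2), a rise of 3.17 (SE 0.43, adjusted p = 0.000304). *Cyfip2*, a regulator of actin branching, ran from 0.886 to 4.57 CPM (median 1.18) and then from 5.62 to 40.5 CPM (median 11.6) without overlap, a rise of 2.96 (SE 0.35, adjusted p = 0.00015). *Pik3ip1*, an inhibitor of phosphoinositide 3-kinase, did not overlap either, with medians of 2.12 and 8.95 CPM (rise of 2.31).

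Some single adhesion genes were among the 15 largest rises of genes at 5 CPM or more in 1 of the times, each from a low level. *Cdh6*, a cadherin, had a median of 1.67 and then 15.9 CPM (rise of 2.63), *Ncam1*, the neural cell adhesion molecule, 0.499 and then 6.23 CPM (2.52), and *Pcdh9*, a protocadherin with no count in 1 library of 72 h, 0.286 and then 4.71 CPM (3.02). The call of *Pcdh9* was lost without DRE-null 72 h replicate 4 or DRE-null 120 h replicate 3 (adjusted p up to 0.0532). *Kif5c*, a kinesin motor, rose by 2.65, *Tnik*, a kinase of the Wnt pathway, by 2.59, *Mcc* by 2.46, *Pamr1* by 2.65, *Shisa2* by 2.46 and *Hif3a*, a hypoxia-inducible factor subunit, by 2.67. *Itgb8*, an integrin subunit at 0.145 ± 0.31 and then 1.68 ± 1.25 CPM (SD, n = 8 each), was 1 of 2 of 22 tested integrin and focal adhesion genes called, both higher. The other, *Cav1*, rose by 1.07 and lost its call without any of 8 single libraries.

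Some hepatocyte enzymes were higher at 120 h while others of the same pathways were lower. *Tat*, tyrosine aminotransferase, an enzyme induced by glucocorticoid, ran from 2.08 to 100 CPM (median 23.7) at 72 h and from 22.1 to 325 CPM (median 154) at 120 h. The groups overlapped, with WT 72 h replicate 3 lowest at 72 h and WT 120 h replicate 2 lowest at 120 h. It rose by 2.53 (SE 0.54, adjusted p = 0.00698). *Cps1*, which starts the urea cycle, had a median of 85.8 and then 213 CPM and rose by 1.31 (adjusted p = 0.0168). Of the 50 urea cycle and amino acid genes 4 rose, *Prodh2* among them, and 9 fell, among them *Otc* of the urea cycle (-1.67), *Agxt* (-1.72), *Gls2* (-2.02) and *Aass* (-0.97), with a median of -0.20.

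The glucose genes of the liver split in the same manner, with 2 higher and 3 lower of 21 tested and a median of -0.25. *Slc2a2*, the hepatocyte glucose transporter, ran from 3.81 to 35.5 CPM (median 18.2) and then from 31.6 to 108.1 CPM (median 58.7), a rise of 1.90 (SE 0.32, adjusted p = 0.00146). *G6pc*, glucose-6-phosphatase, rose from 0.374 ± 0.364 to 2.97 ± 0.969 CPM (SD, n = 8 each) without overlap (log2 change 3.29, adjusted p = 0.00143). *Pcx*, pyruvate carboxylase, fell by 1.56, *Pygl*, glycogen phosphorylase, by 0.98 and *Fbp1*, fructose bisphosphatase, by 1.90. *Fbp2*, the muscle form, fell by 2.87.

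Of 48 cytochrome P450 genes of families 1 to 4 tested, 4 were higher (*Cyp1a2*, *Cyp2c40*, *Cyp2j5* and *Cyp4f15*) and 6 lower, with a median of -0.47. Without both libraries that stood apart 8 were higher and 8 lower, with a median of -0.30. Without 1 library, 1 to 7 were higher and 5 to 10 lower. The summed level of the list was 7797 CPM in WT 72 h replicate 3, against 1203 to 1643 CPM in the other 72 h libraries. *Cyp2c70*, a bile acid hydroxylase of mice, ran from 166 to 343 CPM (median 300) and then from 40.95 to 329 CPM (median 86.1), a fall of 1.39 (adjusted p = 0.0151). *Cyp2c23* fell by 2.10, *Cyp2b10* by 1.80, *Cyp4v3* by 0.92 and *Cyp2e1*, at 2.68 ± 3.36 and then 0.224 ± 0.309 CPM (SD, n = 8 each), by 3.46. *Cyp2f2* fell by 1.69, a call lost without WT 72 h replicate 3 (adjusted p = 0.0606). Of 27 bile acid and transporter genes tested, *Slco1a4* rose (2.56) and 3 fell, *Slco2a1*, a prostaglandin transporter (-1.29), *Abcg2* (-0.62) and *Slc47a1* (-1.34), with a median of -0.14. The call of *Abcg2* was lost without any of 5 single libraries, where its fold change dropped under 1.5.

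Transcription factors of the liver were mostly not called: 3 of 30 tested rose and none fell, with a median of -0.05 that turned to 0.06 with a surrogate variable in the fit. *Onecut1*, also called HNF6, ran from 0.709 to 12.4 CPM (median 4.98) and then from 9.05 to 21.7 CPM (median 14.4), a rise of 1.62 (SE 0.35, adjusted p = 0.00824). *Klf15*, a factor induced by glucocorticoid, had a median of 28.4 and then 64.1 CPM (rise of 1.01, adjusted p = 0.00662). *Hnf4a*, the central hepatocyte factor, was 443 ± 110 and 369 ± 89.4 CPM (SD, n = 8 each) and was not called (-0.22, adjusted p = 0.374).

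Among 70 matrix and remodelling genes tested, 5 rose (*Col5a2*, *Lama1*, *Lamb1*, *Dcn* and *Tgfb2*) and 7 fell, with a median of 0.16. *Adam12*, a membrane metalloprotease, ran from 18.6 to 56.6 CPM (median 41.01) and then from 5.49 to 14.1 CPM (median 8.99) without overlap, a fall of 2.00 (SE 0.21, adjusted p = 5.65e-05). *Loxl4*, a collagen crosslinking enzyme, had a median of 103.6 and then 49.7 CPM (fall of 0.94). *Lamb1* rose from 2.04 ± 0.482 to 4.51 ± 1.55 CPM (SD, n = 8 each) without overlap. *Col5a2* rose from 5.29 ± 2.78 to 16.1 ± 8.05 CPM. *Dcn*, a proteoglycan and stellate cell marker, rose by 1.30 (adjusted p = 0.0470), a call lost without any of 12 single libraries and without both that stood apart. Beside these genes, the 17 stellate cell and fibroblast markers summed to 86.3 to 272 CPM at 72 h and 54.9 to 464 CPM at 120 h. Of the 14 tested, *Dcn* was higher and *Ecm1* lower, with a median of 0.97 and 12 positive values. *Ecm1* had a median of 111.2 and then 39.8 CPM (fall of 1.501, adjusted p = 0.00179), and *Col1a1*, at 16.02 and 29.1 CPM, was not called (1.12, adjusted p = 0.194). The part of these cells in the matrix values was not tested.

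Cytoskeletal genes gave 9 lower and 1 higher, *Anxa1*, of 53 tested, with a median of -0.28. *Tuba1b*, an alpha tubulin, ran from 60.4 to 171.6 CPM (median 126.3) and then from 31.98 to 68.5 CPM (median 46.2), a fall of 1.26 (SE 0.21, adjusted p = 0.00121). *Tubb6* and *Tuba1c* fell by 1.12 and 1.10, and *Actb* by 0.76. Of 35 YAP and serum response factor targets, *Arhgef17* (1.06) and *Vgll3* (1.29) rose and *Fosl1* and *Ier3* fell, with a median of 0.21. That is 5.71% each way, near the 3.71% higher and 4.69% lower of all genes tested. The call of *Vgll3* was lost without any of 6 single libraries. *Jun* passed the adjusted p (0.0143) but not the fold, at 0.52.

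Markers of other liver cells had few calls. Of 16 macrophage markers tested, *Csf1r*, the receptor for macrophage growth factor, rose by 1.54 (median 5.79 and then 14.6 CPM, adjusted p = 0.0068) and none fell, with a median of 0.87. Their sum ran from 82.4 to 249 CPM at 72 h and from 94.1 to 400 CPM at 120 h. *Lyz2*, lysozyme, had medians of 14.98 and 59.2 CPM and was not called (1.67, adjusted p = 0.0805), nor was *Cd14* (-1.02, adjusted p = 0.0739). Of 16 endothelial markers *Stab1* fell by 0.85 (adjusted p = 0.0452), a call lost without any of 11 single libraries, and 15 of the 16 values were negative, with a median of -0.45. *Pecam1*, *Egfl7* and *Flt4* were not called (-0.71, -0.56 and -0.20). *Trdc*, the constant gene of the delta T cell receptor, fell by 2.85, but its 72 h values ran from 0.872 to 67.1 CPM with the highest in WT 72 h replicate 3, and without both libraries the fall was 1.32 (adjusted p = 0.0367).

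Of 41 lipogenesis and lipid droplet genes tested, 4 fell (9.76%) and 2 rose (4.88%), *Lpin1* and the fatty acid transporter *Cd36*, with a median of -0.13. *Mttp*, which loads lipid onto apolipoprotein B, ran from 58.5 to 234 CPM (median 104.8) and then from 16.4 to 77.97 CPM (median 34.5), a fall of 1.64 (SE 0.25, adjusted p = 0.000795). *Acacb* fell by 1.20 and *Fabp4* by 1.25. Of 26 cholesterol synthesis genes, 3 fell (11.5%) and none rose, with a median of -0.28. The count was 7 without both libraries that stood apart, 2 to 6 without 1 library (6 without DRE-null 72 h replicate 1) and 18 with TCDD. *Acat2*, which condenses acetyl-CoA in the first step, fell by 0.78. Fatty acid oxidation and PPAR alpha targets gave 2 higher (*Acaa1b* and *Acot1*) and 2 lower (*Bdh1* and *Vnn1*) of 51, with a median of -0.13. That is 3.92% each way, near the 3.71% higher and 4.69% lower of all genes tested. The count lower was 8 without both libraries that stood apart, 9 without DRE-null 72 h replicate 1, 8 without DRE-null 120 h replicate 1 and 5 without WT 120 h replicate 2.

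Genes of translation and respiration had mostly negative values, with a number of calls that depended on single libraries. Over all genes tested, 6885 of 15083 values were negative. Of 75 cytosolic ribosomal protein genes tested, 74 had negative values with a median of -0.47, and 4 were called lower (5.33%, against 4.69% of all genes tested). Without both libraries that stood apart 21 were, and without 1 library between 0 (WT 120 h replicate 1 or DRE-null 72 h replicate 4) and 33 (DRE-null 72 h replicate 1). *Rps12* had a median of 406 and then 235 CPM (fall of 0.77, adjusted p = 0.0235), and *Rplp1* and *Rpl39* fell by 0.70 and 0.60. Their calls were lost without any of 2, 6 and 9 single libraries. Of 76 nuclear genes of oxidative phosphorylation, 73 were negative with a median of -0.36 and 2 (2.63%) were called lower, *Uqcr10* and *Atp5b*. That count was 5 without both libraries, 13 without DRE-null 72 h replicate 1, 9 without WT 120 h replicate 2, and 0 without any of 10 other libraries. Of 13 mitochondrially encoded genes, 12 were negative with a median of -0.49, and *mt-Nd1* and *mt-Nd2* fell by 0.65 and 0.63. The calls of all 4 were lost without any of 10 to 12 single libraries. The directions of these 3 lists held with RLE scaling and in DESeq2. Medians of the first 2 were -0.31 to -0.17 when a surrogate variable or the share of pairs on no gene entered the fit. Scaling to raw library totals was not run. The mitochondrial share of raw counts was 2.49 ± 0.60% at 72 h and 2.15 ± 0.53% at 120 h (SD, n = 8 each, exact permutation adjusted p = 0.433). The part of scaling in these small medians was not tested. Unfolded protein response genes gave 4 lower of 42 and a median of -0.17, which was 0.08 without both libraries that stood apart, with the chaperone *Pdia6* (median 264 and then 159 CPM, fall of 0.78, no overlap), *Calr* and *Edem1* among them. Interferon-stimulated genes gave 1 lower of 40, *Ifi47*, lost without any of 13 single libraries. None of 19 circadian clock genes was called.

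The change was compared between the genotype labels. Within the WT label 232 genes were called, 87 higher and 145 lower, and within DRE-null 27 were higher and 97 lower. The second count ranged from 6 to 1810 when 1 library was left out and was highest without DRE-null 72 h replicate 1, while the first ranged from 28 without WT 120 h replicate 4 to 388. In the test of the difference itself, 0 of 15083 genes (0%) were called by edgeR, and 0 by DESeq2. In edgeR 308 genes (2.04%) had an unadjusted p under 0.05, a share below the threshold itself. With 4 libraries per group, a count of 0 does not show that the labels changed alike. *Rrm2* changed by -2.30 ± 0.32 (log2, SE) under WT and -2.14 ± 0.32 under DRE-null, *Lamb3* by -2.81 ± 0.41 and -3.01 ± 0.42, and *Cyfip2* by 2.46 ± 0.47 and 3.43 ± 0.48. *Wnt4* changed by 5.39 ± 0.76 and 2.83 ± 0.65, and its difference had an unadjusted p of 0.0128 that did not pass adjustment. The median of the cell cycle list was -1.72 under WT and -1.15 under DRE-null, and that of the glycolysis list -1.08 and -0.37.

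The same interval was then measured in libraries that the comparison had not used, the 16 TCDD libraries of 72 h and 120 h. The labels do not say whether these cultures shared isolations or harvests with the vehicle cultures. A batch tied to a harvest could therefore recur in both arms, and like signs are no independent check of time in culture. In these, 2974 of 14866 genes were called, 1478 higher (9.94%) and 1496 lower (10.1%), between 2458 and 3244 when 1 library was left out. Over all genes tested with TCDD, 51.7% of values were positive and 48.3% negative. Of the 559 genes that rose in vehicle, 541 were tested with TCDD and 539 of these had the same sign. There 393 were called higher too, which is 70.3% of the vehicle list and 26.6% of the TCDD list. Of the 707 that fell, all 703 tested had the same sign and 575 were called lower, 81.3% and 38.4% of the lists. *Rrm2* changed by -1.61 ± 0.28 (log2, SE) with TCDD, *Lamb3* by -2.31 ± 0.16, *Apom* by -3.08 ± 0.20, *Wnt4* by 3.43 ± 0.55 and *Cyfip2* by 2.28 ± 0.42. In the cell cycle list 30 of 50 fell and 1 rose with TCDD, and in the plasma protein list 35 of 52 fell.

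Direct tests of the difference between treatments called 0 of 15933 genes (0%) by edgeR and 0 by DESeq2. In edgeR 271 (1.70%) had an unadjusted p under 0.05, again a share below the threshold. The count of 0 does not show that the change was alike in both treatments. Of the named genes called in vehicle, 95 were called with TCDD too. *Cps1*, which was not called with TCDD, was the only named gene called in vehicle whose sign was opposite there. It changed by 1.31 in vehicle and -0.14 ± 0.46 with TCDD, with an unadjusted p of 0.018 for the difference. *Cps1* levels at 72 h had a median of 85.8 CPM in vehicle and 86.2 CPM with TCDD, and at 120 h of 213 and 65.9 CPM. *Cyfip2* had medians of 21.7 and 105.8 CPM at 72 h and 120 h with TCDD. Its treatments overlapped at 72 h, where the lowest TCDD library had 1.76 CPM, and not at 120 h, where the lowest had 76.3 CPM.

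**Figure D4:**
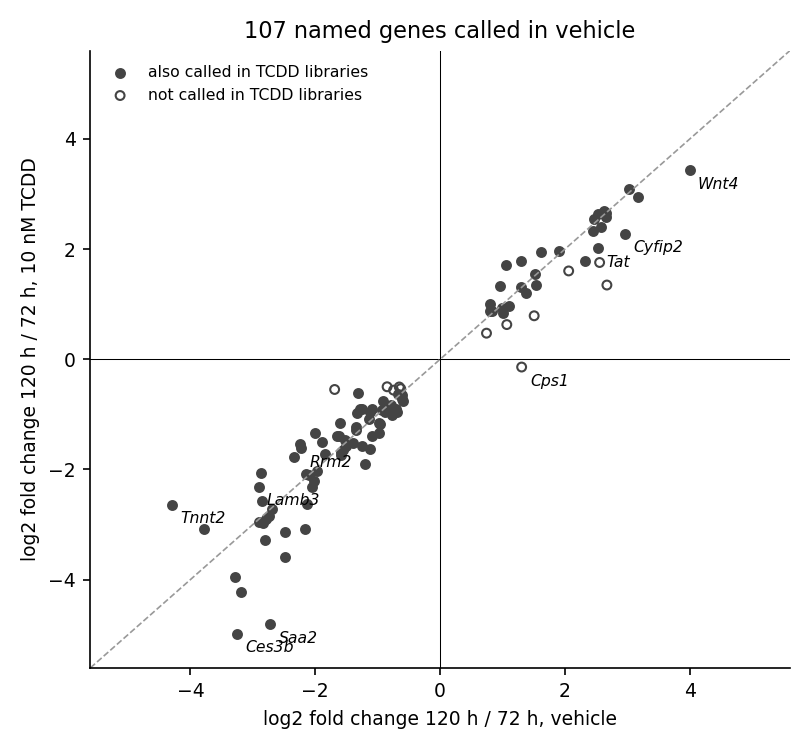
Log2 fold change from 72 h to 120 h of the named genes called in vehicle (x axis) against the same change in TCDD libraries (y axis), with filled symbols for the 95 genes also called there. The dashed line marks equal change. The genes lie in the lower left and upper right corners, with *Cps1* the exception.

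An earlier interval of the same culture, 48 h against 24 h, was shorter than the late interval and shared no library with it. Vehicle libraries gave 1502 called genes of 14058 there, 907 higher (6.45%) and 595 lower (4.23%), between 1173 and 1596 when 1 library was left out, and 1 vehicle library of 48 h had 3384 CPM of *Cyp1a1* against a median of 2.13. Of the 559 genes that rose late, only 427 were tested early. Among these, 65 (11.6% of the 559 and 7.17% of the 907) had risen early and 18 had fallen. All 707 that fell late were tested early, and 73 (10.3%) had fallen and 198 (28.0%) had risen. The cell cycle list ran opposite ways, with 31 of 50 higher and none lower early, and 37 with a called difference between the intervals, all lower late. *Ccnb2* rose by 4.84 (SE 0.40) early and fell by 2.34 late. Of the plasma proteins 27 fell and 2 rose early, with a median of -0.95.

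Tested directly, the change differed between the intervals for 1593 of 15884 genes (10%), 464 with the late change higher and 1129 with it lower. The changes were not scaled to the unequal lengths of the intervals, so a steady change can also give a difference. *Rrm2* had a difference of -4.38 (SE 0.41, adjusted p = 3.33e-09), *Krt19* of -5.90 and *Lamb3* of -4.78. *Tat* had one of 4.73 (SE 0.77, adjusted p = 4.94e-05), and it fell by 2.24 early. *Cps1* fell by 2.80 early, with a difference of 4.02 (SE 0.51, adjusted p = 1.05e-06).

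Across the course, the summed cell cycle list had a median of 561 CPM at 2 h and 1462 CPM at 24 h. It peaked at 2866 CPM at 48 h, and the next medians were 1470, 1055 and 779 CPM. *Rrm2* went from 120 CPM at 48 h to 50.6, 25.4 and 8.59, and *Lamb3* from 51.2 CPM to 26.4, 8.96 and 2.44. *Tat* had its median of 2314 CPM at 2 h and its lowest, 15.2 CPM, at 48 h. It then stood at 23.7, 130 and 154 CPM, so that at 120 h it was still below the 556 CPM of 12 h. *Wnt4* was at or under 0.695 CPM in the median up to 48 h and then at 1.53, 18.5 and 48.6 CPM. Summed plasma proteins had a median of 383720 CPM at 2 h and 95658 CPM at 24 h, which came down to 53580 CPM by 72 h and to 32060 CPM by the end. At 4 h and 96 h a library lay far from the others of its time, at 44927 CPM against a median of 305540 and at 286830 CPM against 46511.

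**Figure D5:**
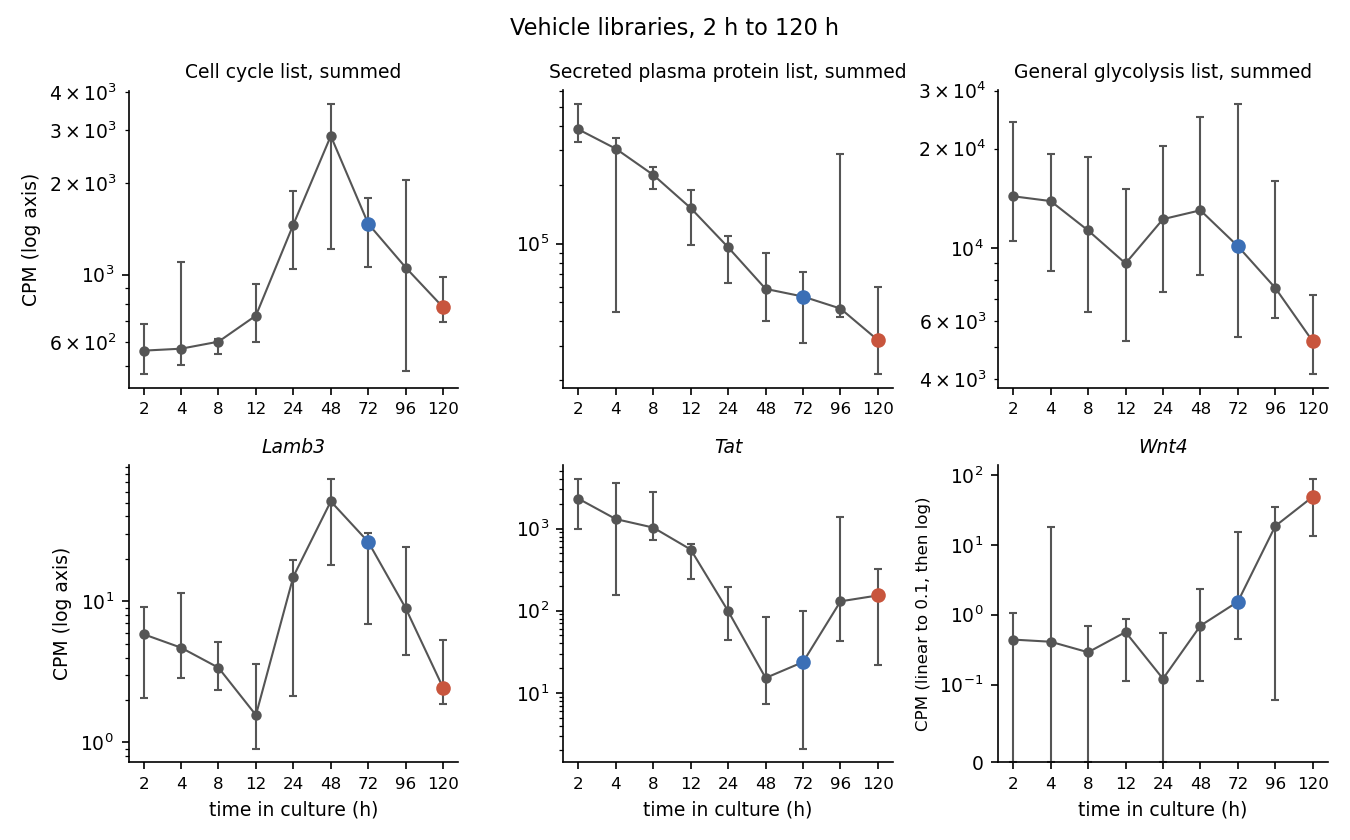
Vehicle time course of 3 summed gene lists and 3 genes (y axes, CPM on log axes, with *Wnt4* linear up to 0.1) at 2 h to 120 h (x axis, times evenly spaced). Points are medians of 8 libraries and bars run from the lowest to the highest library, with 72 h in blue and 120 h in red. The cell cycle sum peaks at 48 h with 2866 CPM and is at 779 CPM by 120 h, while *Tat* is lowest at 48 h with 15.2 CPM.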

How the data were processed

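RNA-seq was done on primary mouse hepatocytes, and the 16 vehicle libraries of 72 h and 120 h were analysed. Per the submitters' processing notes and methods, the authors used FastQC 0.11.3, Trimmomatic 0.39 and STAR 2.7 on GRCm39, and deposited unstranded and stranded read counts per gene. The unstranded counts were used, since 50.4% to 50.8% of stranded counts fell on strand 1. Lines naming no gene (19.4% to 24.8% of pairs) were left out. Symbols of 52083 of 55359 genes came from GENCODE M21 (GRCm38), and promoters from RefSeq. No normalisation preceded deposition.

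Counts were tested with edgeR 4.0.16 (R 4.3.3; TMM, robust quasi-likelihood, filterByExpr with a count minimum of 10 and a total of 15, Benjamini-Hochberg adjustment), with genotype label as covariate. A gene was called at an adjusted p under 0.05 and at least 1.5-fold. Changes within labels and their difference, the same interval with TCDD, and vehicle 48 h against 24 h were fitted likewise. Alternatives were DESeq2 1.42.0, other scaling, filters and covariates (sva 3.50.0), a GC correction, each label alone and leaving out each library. Library measures were compared by exact permutation (SciPy 1.17.1). The steps were also run on simulated counts with a common spread for all genes and no library set apart. That run gives no error rate for these data.

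The members and gene lists were chosen with earlier results of these data known. Named genes were *Pkm* and *Cyp1a1*, the 15 called genes with the largest rise and the 15 with the largest fall at 5 CPM or more in 1 of the times, the 3 members of each list with the smallest p at that level, the most abundant marker of each cell type, and up to 3 genes by smallest p for each called difference. Other list members were named after their values were seen, to account for a list's count. Depth ran from 15550949 to 22900470 counts per library. Results of some items are not reported here.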

Additional observations from a re-analysis of the deposited data

Results flagged for a closer look

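In groups of 8 libraries, a library's log2 CPM was set apart when its gap to the nearest other library exceeded Dixon's critical share of the group's range. Of 262 such groups tested, 51 held such a library, and chance gives about 1 in 20 groups. Of the 51, 20 came from DRE-null 72 h replicate 1, 15 from WT 120 h replicate 2 and 8 from WT 72 h replicate 3. DRE-null 72 h replicate 1 stood apart in log2 CPM for *Tnnt2* at -0.51, *Ces3b* at -0.12, *Ces3a* at 2.25, *Lamb3* at 2.81, *Sprr1a* at 10.21, *C8b* at 1.76 and *Mup14* at -0.19. The same library was apart for *Saa2* at 2.08, *Hsd11b1* at 2.02, *Kif5c* at 3.14, *Mcc* at 4.64, *Cyp2c23* at -0.42, *Parva* at 6.86 and *Saa1* at 3.49. It was further apart for *Orm2* at 1.57, *Acacb* at 3.51, *Mup3* at 8.01, *Igf1r* at 3.84, *Rps12* at 7.56 and *Rpl39* at 6.04. WT 120 h replicate 2 stood apart in log2 CPM for *Ces3b* at 1.93, *Ces3a* at 4.32, *Sprr1a* at 10.30, *C8b* at 3.43, *Mup14* at 2.23, *Saa2* at 5.23 and *Hsd11b1* at 3.42. The same library was apart for *Pcdh9* at -3.44, *Hif3a* at -0.55, *Mcc* at 3.88, *Apoa2* at 7.24, *Pygl* at 7.04, *Fgfr2* at 3.47 and *Arhgef17* at 3.09. It was further apart for *Acsl5* at 7.34. WT 72 h replicate 3 stood apart in log2 CPM for *Pkm* at 11.07, *Trdc* at 6.07, *Ptgfr* at -1.88, *Col1a1* at 0.55, *Spp1* at 6.34 and *Pygl* at 8.38. The same library was apart for *Krt20* at 2.51 and *Gsta1* at 8.96. Single cases were WT 120 h replicate 3 for *Ptgfr* at 2.84, *Ldhb* at 0.22 and *Ifi47* at 5.44, DRE-null 120 h replicate 1 for *Stab1* at 6.03, DRE-null 72 h replicate 2 for *Sox9* at 5.23, DRE-null 120 h replicate 3 for *Pdia6* at 6.71 and *Acaa1b* at 3.41, DRE-null 120 h replicate 4 for *Srebf2* at 7.07.

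The change from 72 h to 120 h differed from that of 24 h to 48 h for 1593 genes by a direct test, of which 53 are named genes, 43 with a lower late change and 10 with a higher one. The values below are the late minus the early log2 change, not scaled to the unequal lengths of the intervals. The lowest were *Tnnt2* at -8.68, *Fbp2* at -7.22, *Ccnb2* at -7.19, *Krt19* at -5.90, *Trdc* at -5.81, *Cenpa* at -5.59, *Spag5* at -5.49, *Aurka* at -4.83, *Lamb3* at -4.78 and *Rrm2* at -4.38. Next came *Crct1* at -3.80, *Sprr1a* at -3.75, *Vnn1* at -3.55, *Spp1* at -3.35, *Pkm* at -3.25, *Ecm1* at -3.24, *Gstp2* at -3.19, *Itga2* at -3.06, *Lect2* at -2.96, *Cdkn2c* at -2.84 and *Adam12* at -2.70. Smaller differences were those of *Gstt3* at -2.44, *Krt20* at -2.43, *Slco2a1* at -2.36, *Apom* at -2.19, *Ifi47* at -2.10, *Gsta1* at -2.04, *Ldha* at -1.83, *Pdia6* at -1.82, *Mttp* at -1.81, *Apoa4* at -1.81 and *Calr* at -1.76. The nearest to 0 were *Pcx* at -1.70, *Psmb8* at -1.47, *Gjb2* at -1.43, *Tuba1b* at -1.33, *Pygl* at -1.32, *Edem1* at -1.29, *Flt4* at -1.20, *Parva* at -1.01, *Rpl39* at -0.97, *Atp5b* at -0.91 and *Atp5j* at -0.63. The higher ones were *Tat* at 4.73, *Slco1a4* at 4.26, *Cps1* at 4.02, *Crp* at 3.97, *Acaa1b* at 3.74, *Slc2a2* at 3.41, *Csf1r* at 2.29, *Igf1r* at 1.74, *Arntl* at 1.11 and *Jun* at 0.69.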

How the results depend on the processing

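No paired analysis was possible because the labels carry no replicate number. Of the named genes called, 9 kept their call and sign under every alternative (*Lamb3*, *Sprr1a*, *Ptgfr*, *Cyfip2*, *Pamr1*, *Apom*, *Rrm2*, *Cenpa* and *Lect2*), 87 kept it without any 1 library, and none reversed. Calls totalled 1266 and were 2131 without both libraries that stood apart, 250 in WT alone, 30 in DRE-null alone, 840 with all 72 vehicle libraries, 713 when the no-gene share entered as a covariate, and 761 to 2452 without 1 library. DESeq2 gave 1879. The 19 plasma proteins called lower were 11 without a filter on low counts, 2 in WT alone, 5 in DRE-null alone, 10 with the no-gene share and 12 to 30 without 1 library, and the 36 cell cycle genes called lower were 6 in DRE-null alone. Calls within WT (232) were 799 with DESeq2 and 28 to 388 without 1 library. Those within DRE-null were 653 with DESeq2, 2399 without both libraries and 6 to 1810 without 1. *Spp1* (-0.05) reversed to 0.17 in DRE-null alone and to 0.11, 0.07, 0.05 and 0.01 without 1 library (range -0.21 to 0.11), and *Flt4* (-0.20) to 0.024 with the no-gene share. Of the library measures, the difference in unmapped share (-0.308 points) reversed to 0.09997 without DRE-null 72 h replicate 4 (range -0.608 to 0.09997), and that in strand 1 share (0.00776) to -0.00505, -0.0203, -0.0043 and -0.00546 without single DRE-null libraries (range -0.0203 to 0.0396). Causes were not tested. Fits on 1 label or without libraries hold fewer samples. Genes near 1 CPM rest on few counts.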
